A study of Rattus norvegicus with 12 samples.

Results

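The noncoding transcript profile of the normal lumbosacral spinal cord was described in fetal Wistar rats on embryonic day 17. Its members were the 3 RNA libraries labelled as normal among the 6 lncRNA libraries of the series, which held 12 libraries in all. The other lncRNA libraries came from fetuses with anorectal malformations and are not used here. Every library was made from total RNA of lumbosacral cord tissue, and the labels name no treatment, transgene or surgery for the normal fetuses. They do not say whether the libraries came from separate fetuses or litters, so the spread given below is that between these 3 libraries and may be technical. With 1 group there was no contrast, and all values are descriptions without a test of a difference between groups.

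Long noncoding RNAs (lncRNAs) are transcripts without a long open reading frame, and many act in the nucleus, where they bind chromatin, splicing factors or other RNAs. The embryonic spinal cord forms motor and sensory circuits at this stage, and its neurons express imprinted and neural lncRNAs such as Meg3, the maternally expressed RNA of the Dlk1-Dio3 imprinted domain, and Miat, a nuclear RNA of neurons and their progenitors. Total RNA also holds short structured RNAs that are not lncRNAs in the usual sense, such as the RNA parts of RNase MRP, which processes ribosomal RNA, of 7SK, which restrains transcription elongation, and of the signal recognition particle (7SL), which targets proteins to the endoplasmic reticulum.

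The deposited table gave a whole-number read count and an FPKM value (fragments scaled for transcript length and library size) for each of 22701 transcript rows. The summed counts were 3017868, 4508920 and 4549756 in normal replicates 1, 2 and 3. A floor of 3 counts corresponded to 1.0, 0.666 and 0.655 CPM (the share of the library's scaled total over the table, on the usual CPM scale). The FPKM values implied totals of 18945583, 28389505 and 30430852, of which the lncRNA counts made up 15.9%, 15.9% and 15.0%. Replicate 1 was thus the shallowest library by either total. Levels per length are compared below in FPKM. Ranks and shares by count describe how the reads are distributed, and a count grows with transcript length.

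At least 10 counts in each of the 3 libraries were found for 12028 rows, or 53.0% of the table. At least 1 count in each was found for 20040 rows (88.3%), at least 100 for 3951 (17.4%) and at least 1000 for 538 (2.37%). A further 292 rows had no count in any normal library, of which 228 carried NONCODE, 47 Ensembl and 17 assembly identifiers. On the FPKM scale 10525 rows (46.4%) reached 1 in all 3 libraries, 1933 reached 10, 48 reached 100 and 7 reached 1000. The median row stood at 1.16, 1.15 and 1.1 FPKM in replicates 1 to 3. The median row had 14, 20 and 20 counts, where counting error alone is large, and a small set of rows carried much of the signal.

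The 10 rows with the highest mean count held 11.8%, 13.3% and 12.7% of all counts in replicates 1, 2 and 3, a mean of 12.6% ± 0.739 (SD, n = 3). The 100 highest rows held 27.2% ± 0.467 and the 1000 highest held 62.1% ± 0.312. When each library was ranked on its own, 519, 514 and 526 rows made up 50% of its counts, and 4478, 4489 and 4533 rows made up 90%. The same 9 rows were among the top 10 by count in all 3 libraries, 83 among the top 100 and 863 among the top 1000. Ranked by FPKM, the top 10 rows held 18.1% ± 1.07 of the summed FPKM. In the plot of cumulative shares the 3 curves nearly coincide.

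**Figure D1:**
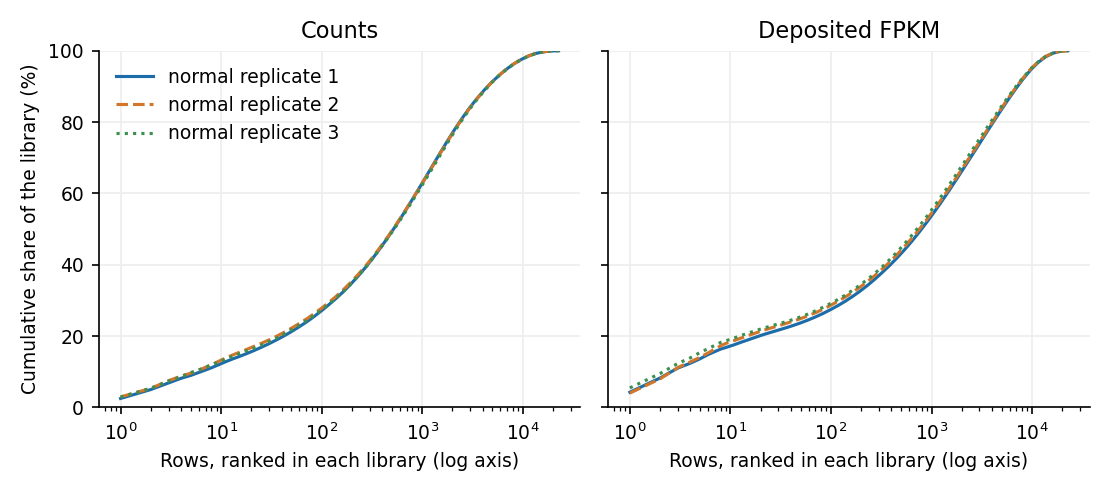
Cumulative share of a library (vertical axis, %) held by its rows ranked from highest to lowest (horizontal axis, log scale), for counts (left) and deposited FPKM (right), with 1 line for each normal library. In each library 514 to 526 rows made up 50% of the counts.

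By count, Meg3 was the most abundant lncRNA that carried a gene symbol. The 300 bases around its start are printed because its neighbourhood is the largest with a named lncRNA gene. The sequence is RefSeq's for the build GRCr8, chromosome 6, plus strand, from 250 bases before to 50 bases after the annotated start, chr6:134273806-134274105. Capitals mark 3 motifs that were searched on both strands, which are the CCAAT box, the cyclic AMP response element TGACGTCA and the form TATAAA of the TATA box.
Meg3 promoter: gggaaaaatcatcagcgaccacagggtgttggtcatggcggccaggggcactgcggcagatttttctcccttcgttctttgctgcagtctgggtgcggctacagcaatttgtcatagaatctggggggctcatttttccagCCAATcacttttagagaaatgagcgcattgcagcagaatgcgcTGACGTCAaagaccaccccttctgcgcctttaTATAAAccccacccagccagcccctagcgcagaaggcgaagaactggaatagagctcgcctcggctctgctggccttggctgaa
The CCAAT box began 109 bases before the start. The element TGACGTCA, which reads the same on both strands, began 66 bases before it, and the TATAAA box 34 bases before it. A match to TATAAA on the other strand, which overlaps that box, began 38 bases before the start. Among 33469 rat promoters of the same length, 37.5% held the CCAAT box on either strand, 1.83% held TGACGTCA and 14.2% held TATAAA. The window held 13 CG pairs, and 35.3% of the promoters held at least as many. These matches describe the letters of the window and say nothing of which factors bound there. Of the 4 gene symbols among the 20 rows with the highest mean count, 2 had an entry in the promoter table.

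Meg3's highest row, RGD1566401.b (NONRATT024628.2, 6449 bases, chromosome 6, 133667259 to 133682473 in the coordinates of the table), had 39245, 57889 and 56110 counts in replicates 1, 2 and 3. Its FPKM was 321.2, 316.2 and 285.9, a mean of 307.8 ± 19.09 (SD, n = 3), and its CV on the CPM scale was 3.34%. The coefficient of variation (CV) is the SD over the mean. RGD1566401.i, an unspliced row of 3754 bases just before it, had 272.9, 273.8 and 225.8 FPKM. RGD1566401.j stood at 84.71, 84.22 and 66.73 FPKM. All 3 rows were lowest in replicate 3 and close to each other in replicates 1 and 2.

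The Meg3 neighbourhood, in which rows lie no more than 10 kb apart, ran from 133658933 to 133697912 on chromosome 6 and held 19 rows, 12 of which the table names after Meg3. Together they took 3.59%, 3.6% and 3.27% of the counts (3.48% ± 0.187, SD, n = 3). The row byvu.a (NONRATT024634.2, 133684968 to 133687533), which has no gene symbol, was higher per length than any row named Meg3, at 506.0, 505.4 and 413.0 FPKM. The rows bavu.a and sworvy.a, also without a symbol, averaged 418.7 ± 37.01 and 291.3 ± 23.01 FPKM and were likewise lowest in replicate 3. A row without a name, NONRATT033351.1, spanned 133658937 to 133691129 and overlapped most of the others. RefSeq's Meg3 gene in GRCr8 is 32194 bases long, close to the span of that row. Since no source used here gives the strand setting of the counting, overlapping and antisense rows cannot be separated by their reads.

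Miat (NR_111959, NONRATT007649.2, 8474 bases, chromosome 12, 50447251 to 50461859) was the sole row of its neighbourhood. It had 18392, 36207 and 32795 counts and 114.6, 150.5 and 127.2 FPKM, a mean of 130.7 ± 18.24 (SD, n = 3). Replicate 1 was lowest and replicate 2 highest, with a CV of 13.4%, wider than that of Meg3's highest row. Meg3 and Miat, the markers by which the profile was named, were thus both high in every library. By share of counts 1 locus without a gene symbol ranked above the Meg3 neighbourhood.

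The locus with the largest share of counts has no gene symbol in the table or the annotation used here. It lay on chromosome 1 from 221152844 to 221158798, 55.9 kb before a row named after Frmd8. Its 5 rows took 4.51%, 5.29% and 5.05% of the counts (4.95% ± 0.398, SD, n = 3).

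The row stawflu.a (NONRATT003468.2, 2431 bases) had the highest mean count of the table, with 75636, 133315 and 131693 counts. That was 2.51% of the counts in replicate 1 (95% exact interval 2.489 to 2.524%), 2.96% in replicate 2 (2.941 to 2.972%) and 2.89% in replicate 3 (2.879 to 2.91%). Such intervals cover counting error only. Per length it stood at 1785 ± 144.8 FPKM, below its neighbour gokla.a (NONRATT003466.2, 885 bases) at 3331, 3853 and 3338 FPKM. The short row gawkla.a (NONRATT003467.2, 242 bases) averaged 1106 ± 98.54 FPKM. Each of these 3 unspliced rows was highest in replicate 2. The count of gokla.a was 0.738, 0.726 and 0.683 times that of stawflu.a in replicates 1, 2 and 3, so the rows kept close to the same proportion.

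A second locus on chromosome 1, from 11906759 to 11914300, consisted of 3 transcripts that the authors' assembly had added to the catalogues. It took 3.09%, 3.53% and 3.2% of the counts (3.27% ± 0.231, SD, n = 3). The nearest row with a gene symbol lay 172 kb away and was named after Mcc. Its isoforms MSTRG.109.7 (782 bases) and MSTRG.109.8 (774 bases) share 906 bases of genome and end at the same base, and their lengths differ by 8 bases.

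The counts of these isoforms exchanged places between libraries. MSTRG.109.7 had 75817, 32493 and 113890 counts in replicates 1, 2 and 3, and MSTRG.109.8 had 3176, 108008 and 10722. The longer isoform thus took 96.0% of the pair's counts in replicate 1, 23.1% in replicate 2 and 91.4% in replicate 3. Alone the isoforms had CVs of 53.9% and 141%, whereas their sum of 78993, 140501 and 124612 counts had a CV of 9.17%. The split between the isoforms thus differed between the libraries far more than their sum. The third row of the locus, MSTRG.110.1 (539 bases), stood at 1411, 1234 and 1266 FPKM without such an exchange.

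**Figure D2:**
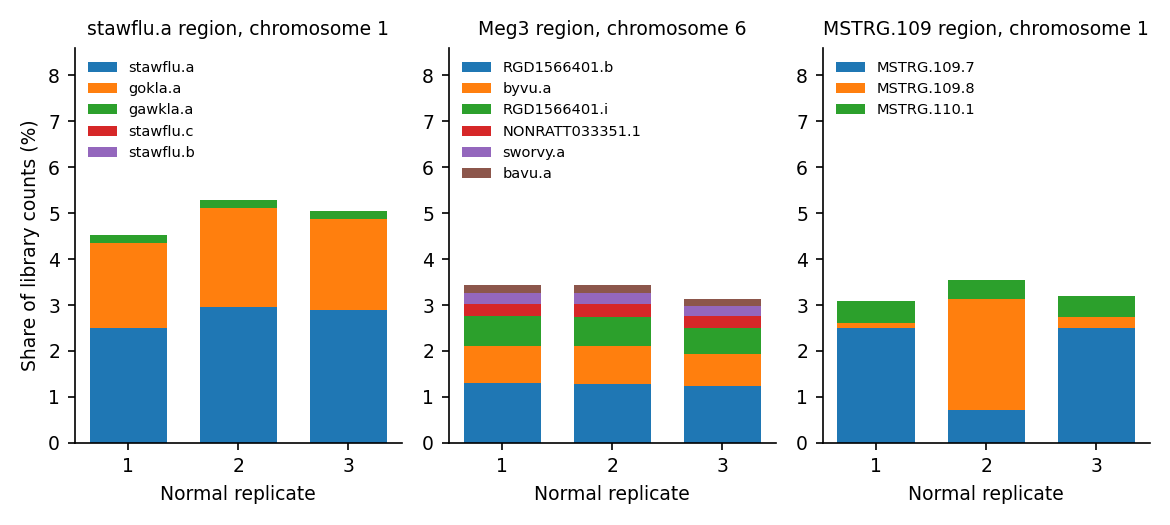
Share of library counts (vertical axis, %) of the 3 loci with the largest shares, by normal replicate (horizontal axis), stacked by row, with at most the 6 highest rows of a locus drawn. The rows of the stawflu.a and Meg3 regions kept similar proportions, while MSTRG.109.7 took 96.0% of its pair in replicate 1, 23.1% in replicate 2 and 91.4% in replicate 3.

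The highest row per length, by the mean over the libraries, was a structured RNA, although MSTRG.109.7 was above it in replicate 1 and MSTRG.109.8 in replicate 2. The Ensembl row named RNase_MRP (n4346, ENSRNOT00000090903, 272 bases, chromosome 5, 58994682 to 58994953) had 4793, 4879 and 6491 FPKM, a mean of 5388 ± 956.2 (SD, n = 3). The row named 7SK (n4385, 331 bases, chromosome 8, 85480292 to 85480622) had 1485, 1601 and 1867 FPKM. Rn7sl1, the 7SL RNA (NR_110377, 300 bases, chromosome 6, 91680229 to 91680528), had 816.4, 794.5 and 993.0 FPKM.

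The row Rmrp.a (257 bases, chromosome 15) had 459.4, 458.2 and 508.9 FPKM. The annotation table lists the name Rmrp as a synonym of Rpph1 and gives the gene the type RNase MRP RNA. That name and type match the chromosome 5 row, but the symbol Rpph1 does not. The rows lie on different chromosomes and are 257 and 272 bases long. Which RNA the chromosome 15 row holds was not resolved here. All 4 structured RNAs were highest in replicate 3, at 120%, 113%, 114% and 107% of their means over the 3 libraries for RNase_MRP, 7SK, Rn7sl1 and Rmrp.a. Together they made up 6.3, 6.34 and 8.32% of the summed FPKM in replicates 1, 2 and 3 and 1.35, 1.39 and 1.88% of the counts. The rows named Meg3 that were described above were lowest in the same library, and whether the 2 patterns are linked was not tested. The telomerase RNA Terc (row Terc.a, 391 bases) behaved otherwise, with 1 count in replicate 1 against 228 and 295 in replicates 2 and 3.

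**Figure D3:**
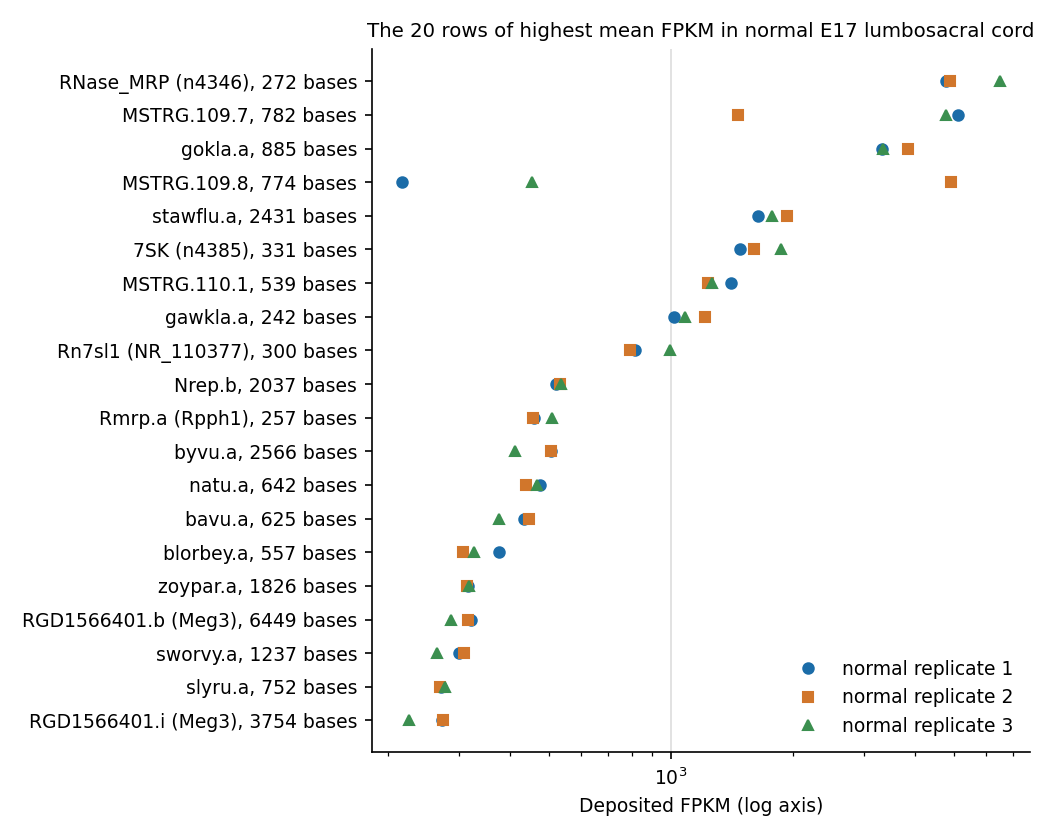
Deposited FPKM (horizontal axis, log scale) of the 20 rows of at least 200 bases with the highest mean, with 1 symbol for each normal library and lengths in bases beside the names. MSTRG.109.7 and MSTRG.109.8 spread widely and in opposite directions, and RNase_MRP, 7SK, Rn7sl1 and Rmrp.a are highest in replicate 3.

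Of the 22701 rows, 20717 (91.3%) had NONCODE identifiers and held 78.5% ± 1.33 of the counts. The 985 Ensembl rows (4.34%) held 2.71% ± 0.3 of the counts but 7.74% ± 1.11 of the summed FPKM, of which the row RNase_MRP is the largest part. Their median stood at 0.188 FPKM, and 26.3% of them reached 10 counts in all 3 libraries, against 52.7% of NONCODE rows. The 999 transcripts from the authors' assembly (4.4%) held 18.8% ± 1.61 of the counts and 9.94% ± 0.642 of the FPKM. They were long, with a median of 3574 bases against 652 for NONCODE rows, and 85.5% of them reached 10 counts in all 3 libraries. The highest rows of the classes by FPKM were gokla.a, RNase_MRP and MSTRG.109.7 for NONCODE, Ensembl and the assembly.

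By name, 8257 rows (36.4%) were named after a coding gene and held 21.2% ± 0.208 of the counts. A further 10846 rows (47.8%) had a name that matched no gene symbol and held 50.2% ± 1.35. The 95 rows matched to a noncoding or other gene were few, but held 3.28% ± 0.106. Rows whose length equals their span on the genome, and which are therefore unspliced in the catalogue, made up 43.7% of the rows and 53.9% ± 1.22 of the counts. Their median CV was 13.6%, against 17.9% for spliced rows. Both kinds were found among the most abundant transcripts: stawflu.a, gokla.a, byvu.a and the structured RNAs are unspliced, whereas MSTRG.109.7, MSTRG.109.8, the highest Meg3 row, Miat and Nrep.b are spliced.

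A row named after a coding gene is a noncoding transcript at or near it and says nothing of its messenger RNA. The highest of them by FPKM was Nrep.b (NONRATT013721.2, 2037 bases, chromosome 18, 26183753 to 26212799), named after a neuronal regeneration related protein. It had 522.0, 533.4 and 535.3 FPKM (530.2 ± 7.22, SD, n = 3). Next came Hnrnpa2b1.a, named after an RNA-binding protein, at 146.1 ± 16.59 FPKM, and Pkia.a, named after an inhibitor of protein kinase A, led chromosome 2 at 130.3 ± 3.026 FPKM. Pkia.a differed little between the libraries (CV 0.974%).

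Lists of genes by function gave the following counts of rows with at least 10 counts in all 3 libraries. Beside them, 53.0% of all rows met that minimum. Of 21 rows named after pan-neuronal genes 18 did, with summed levels of 829, 832 and 831 FPKM in replicates 1 to 3. Most of that sum was Nrep.b, followed by A2bp1.b, named after the neuronal splicing regulator Rbfox1, at 70.48 ± 1.889 FPKM and Elavl3.b, named after a neuronal RNA-binding protein, at 55.19 ± 0.9603 FPKM. Of 96 rows named after RNA-binding and splicing genes 84 did, with summed levels of 1471.5, 1597.8 and 1514.3 FPKM. These were led by Hnrnpa2b1.a, by Hnrph1.e (Hnrnph1) at 68.99 ± 14.1 FPKM and by Tardbp.g, named after the RNA-binding protein TDP-43, at 53.56 ± 1.798 FPKM.

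Rows of position and cell identity genes were fewer and lower. Of 8 rows named after Hox genes, the regulators of axial position, 5 met the minimum. Hoxb8.a stood at 91.9, 97.12 and 103.7 FPKM, Hoxd9.b at 29.46, 26.29 and 34.82, and Hoxb3.c at 21.58, 24.63 and 24.73. The sole row named after a Hox gene of group 10 or beyond was Hoxc10.b, with 15, 17 and 11 counts. For motor neuron genes 6 of 8 rows met the minimum, led by Ret.d, named after a receptor for glial cell line-derived neurotrophic factors, at 5.844 ± 0.8958 FPKM. Etv4.d and Lhx3.a, named after transcription factors of motor neurons, averaged 5.399 ± 0.9122 and 2.66 ± 1.341 FPKM. Lhx3.a had 11 counts in replicate 1 against 53 and 45 in replicates 2 and 3.

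For interneuron and dorsal horn genes 3 of 11 rows met the minimum, and Pou4f1.b, named after a transcription factor of sensory and dorsal horn neurons, led at 41.03, 38.57 and 40.24 FPKM. Robo3.b, named after a receptor of commissural axons and also on the axon guidance list, had 5.681, 15.56 and 13.04 FPKM, and Tlx3.a, named after a factor of dorsal horn neurons, averaged 6.004 ± 0.36. For progenitor genes 6 of 12 rows did, with Sox21.a at 6.783 ± 0.1094, Dbx2.a at 6.31 ± 0.3884 and Vim.e at 3.274 ± 0.3163 FPKM. For axon guidance genes 6 of 8 did, and Slit3.b and Unc5c.b averaged 6.922 ± 0.5997 and 2.939 ± 0.7173 FPKM. For glial genes 5 of 16 did, with summed levels of 86.0, 117 and 102 FPKM, and Nfib.b, named after a transcription factor of gliogenesis, had 30.32, 53.65 and 34.72 FPKM. For snoRNA host genes 9 of 15 did, led by the Snhg11 rows RGD1563912.a at 109.1, 92.35 and 70.32 FPKM and RGD1563912.e at 18.64 ± 1.377 FPKM, with Gas5.a at 7.694 ± 0.8651 FPKM. No row matched the lists of nuclear lncRNAs and of lncRNAs of the Hox clusters.

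Of the rows named after genes of other cell types, some were close to the floor and others were not. None of the 2 blood, 7 muscle, 6 microglia and 1 epithelium rows met the minimum in all 3 libraries. Their summed levels were 1.58, 0.617 and 1.09 FPKM for blood, 0.457, 0.283 and 0.401 for muscle and 0.967, 2.17 and 1.12 for microglia, and the epithelial row, named after Esrp1, was at 0 throughout. Of 2 endothelium rows Pecam1.a met it, at 4.252 ± 0.6296 FPKM, and Tek.b averaged 0.7834 ± 0.167 FPKM. Of 8 rows for cartilage and meninges 4 met it, led by Col1a1.c at 3.013 ± 0.9736 FPKM, and Col2a1.e had 0, 1 and 77 counts. Of 7 sensory ganglion rows 3 met it, and their sums of 51.2, 45.3 and 47.6 FPKM were mostly Pou4f1.b, which the interneuron list also holds. In such bulk tissue fewer cells of a type and less RNA per cell cannot be told apart, and noncoding rows at coding genes are an indirect measure of cell content.

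The rows were 119 to 57691 bases long, with a median of 670. Those of 500 to below 1000 bases were the most numerous (46.1%) and held 22.0% ± 0.533 of the counts and 38.9% ± 0.739 of the FPKM. The 1403 rows of 2000 to below 5000 bases, 6.18% of the table, held 34.0% ± 0.39 of the counts. The 6933 rows of 200 to below 500 bases (30.5%) held 6.1% ± 0.378 of the counts but 22.8% ± 1.03 of the FPKM. Over the 13846 rows with a mean of at least 10 counts, log2 length correlated with log2 mean count (Pearson r = 0.61, Spearman rho = 0.54) more than with log2 FPKM (r = 0.12, rho = 0.13). These are correlations across rows of the same libraries, given as a description.

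Rows over 10000 bases numbered 187, of which 185 came from the assembly. They held 9.05, 8.01 and 6.94% of the counts in replicates 1, 2 and 3, and this share was highest in the shallowest library. The longest row, varty.a (57691 bases, chromosome 7), had 369, 569 and 607 counts and 0.3436 ± 0.005249 FPKM. The row with the widest span on the genome, meesa.a (1108227 bases from start to end), had 0, 0 and 2 counts. Only 22 rows were shorter than 200 bases, and the shortest (ENSRNOT00000087726, 119 bases) had 1, 0 and 1 counts.

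Chromosome 1 held 12.5% of the rows and 17.1% ± 0.408 of the counts, and chromosome 6 held 4.53% of the rows and 8.04% ± 0.247 of the counts. Without the 10 rows of highest mean count, these shares were 10.8% and 6.15%. On chromosome 1 these were rows of the stawflu.a and MSTRG.109 loci, and the rest of chromosome 1 lay below its share of rows, whereas chromosome 6 stayed above it. Chromosome 19 was below its share of rows (2.92% of rows, 1.73% ± 0.0231 of counts), and so was chromosome 20 (2.43% and 1.57% ± 0.0306). The X chromosome had 2.96% of the rows and 2.93% ± 0.0884 of the counts. The table had no row on the Y chromosome or the mitochondrial genome and 7 rows on unplaced sequences. The median row of a placed chromosome was similar throughout, at mean counts of 14.3 (chromosome 20) to 24.8 (chromosome 12).

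**Figure D4:**
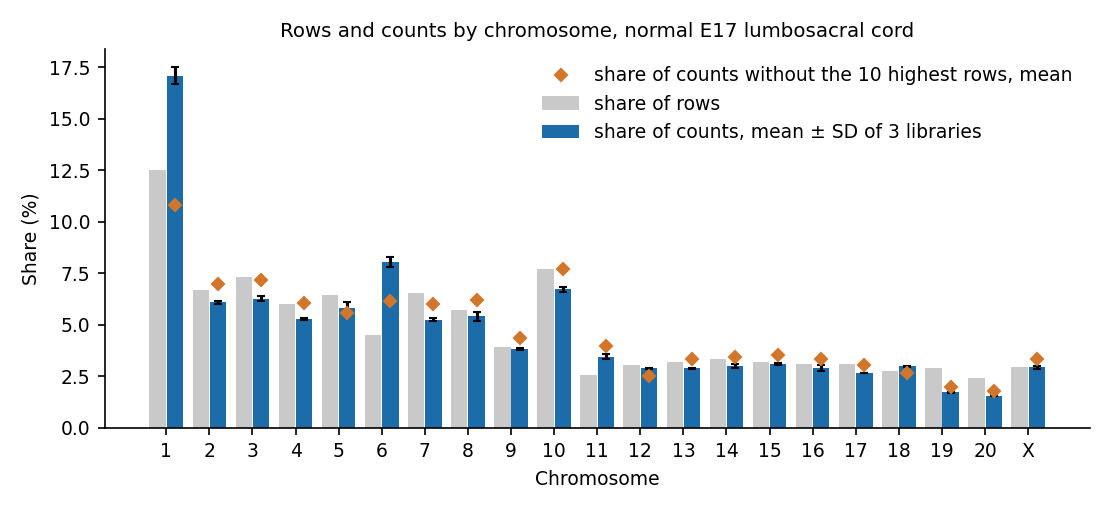
Share (vertical axis, %) of the table's rows (grey bars) and of counts (blue bars, mean ± SD of 3 normal libraries) by chromosome, with the mean share of counts after leaving out the 10 rows of highest mean count (diamonds). Chromosome 1 falls to 10.8% and chromosome 6 to 6.15% without those rows.

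Several chromosomes were led by a single transcript. Miat made up 25.0% of the mean counts of chromosome 12, Nrep.b 23.2% of chromosome 18, parbee.a 16.9% of the X chromosome and RNase_MRP 16.5% of chromosome 5. By FPKM the highest rows were fysho.a on chromosome 3 (190.1 ± 8.652), sorsor.a on chromosome 7 (139.3 ± 1.737), zoypar.a on chromosome 9 (315.5 ± 2.29) and fawma.a on chromosome 11 (137.9 ± 7.832), none of which has a gene symbol. On chromosome 10 it was Homeobox.2.a at 162.2 ± 13.9 FPKM, next to Hoxb8.a. Sarkee.a led chromosome 13 (79.6 ± 5.65), Hnrpdl.g, named after the RNA-binding protein gene Hnrnpdl, chromosome 14 (103 ± 2.772) and Tpm4.c, named after a tropomyosin gene, chromosome 16 (67.13 ± 3.163). Gnao1.b, named after a neuronal G protein subunit, led chromosome 19 (86.26 ± 1.323), MSTRG.14294.1 chromosome 20 (107.6 ± 17.59) and blorbey.a the X chromosome (336.8 ± 36.55). The leader of chromosome 17, LOC680430.a, was unsteady, with 140.2, 173.4 and 9.054 FPKM. MSTRG.24882.1 led the unplaced sequences at 4.029 ± 0.6133 FPKM.

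Hoxb8.a and Homeobox.2.a belong to a Hox B neighbourhood of 17 rows on chromosome 10, from 84111923 to 84198960, which was singled out after its values were seen. It took 0.313, 0.313 and 0.311% of the counts in replicates 1, 2 and 3, with a CV of 0.831%. Single rows in it varied more, such as Hoxb8.a with a CV of 8.94% and Homeobox.2.a with 7.87%. Most of its other abundant rows had no gene symbol, such as stonaw.a at 65.87 ± 7.321 and NONRATT004804.2 at 62.1 ± 4.574 FPKM. Hoxb5.a lay in the same stretch and had 1 count in each library.

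Over the 13846 rows with a mean of at least 10 counts the median CV between the libraries was 15.8%, where counting error alone gives 13.5%. It was 20.5% for means of 10 to below 100 counts, where counting error gives 18.5%, and 10.3% for means of 100 to below 1000, where it gives 6.66%. At means of 1000 and over it was 6.22%, where it gives 2.46%. Relative to counting error, the median CV was thus higher in the better-covered rows. The counting value is the expected SD over the mean, and an SD over 3 libraries falls below the expected SD more often than not. The values therefore do not show at which level the spread beyond counting error is largest. Pearson correlations of log2 CPM between libraries were 0.891, 0.89 and 0.906 for replicates 1 and 2, 1 and 3, and 2 and 3. Rows that differed more than 2-fold between a pair numbered 967 to 1164, or 6.98 to 8.41%. Chi-square divided by its degrees of freedom was 16.98 to 24.11 for the pairs, so no pair looked like 1 library deposited a second time, and it says nothing more of their origin.

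The spread was a mixture of steady rows and a minority of wide spread, some of which were present in some libraries and near 0 in others. Among the 5031 rows with a mean of at least 100 counts, 320 had a CV over 50%. For 37 of them the CV exceeded 170%, close to the ceiling of 173% that is reached when 1 of 3 libraries holds all counts. For 86 it lay between 80 and 93%, as when 1 library is at 0 and the others are alike. Most of the 320 rows lay outside both ranges. A biological coefficient of variation estimated with edgeR was 0.3607 over all rows with a mean of at least 10 counts, above the median CV. Rows that stood apart in 1 library were found in each of the 3: 50, 55 and 49 rows were over 2-fold above both other libraries in replicates 1, 2 and 3, and 109, 87 and 60 were under 50% of both.

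Rows that overlap another row more often had such a wide spread. A CV over 50% was found in 12.9% of the 1634 overlapping rows with a mean of at least 100 counts and in 3.24% of the 3397 that overlap none. Summing the counts over each group of overlapping rows lowered it to 4.16% of 1225 groups. By class, it was found in 16.4% of assembled, 4.65% of NONCODE and 1.03% of Ensembl rows. No source used here says how the counting assigned reads shared by overlapping transcripts, and its part was not tested.

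**Figure D5:**
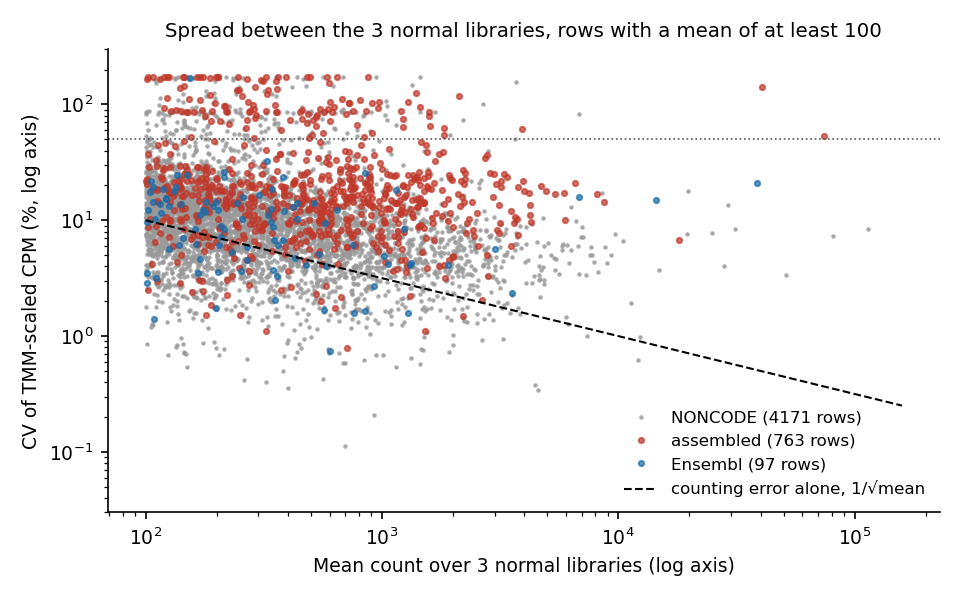
CV of TMM-scaled CPM over the 3 normal libraries (vertical axis, %, log scale) against mean count (horizontal axis, log scale) for the 5031 rows with a mean of at least 100, by identifier class. The dashed line is counting error alone and the dotted line a CV of 50%. Bands of points lie near 173% and between 80 and 93%.

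The rows of widest spread with a mean of at least 1000 counts are examples. Calm3.b, named after a calmodulin gene, had 10060, 328 and 707 counts in replicates 1, 2 and 3, and shovoy.a, without a symbol, had 184, 108 and 3746. Each was high in a single library, and not the same one. MSTRG.109.8, described above, and MSTRG.20537.10, with 3102, 772 and 291 counts, were also among them. The 5 isoforms of MSTRG.20537 summed to 5381, 5631 and 5029 counts with a CV of 26.5%, against a median of 122% for the rows alone. In all, 23 rows had 0 counts in 1 library and at least 1000 in another.

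The steadiest rows of that depth were Bclaf1.d, named after a gene of RNA processing and cell death, with a CV of 0.341%, and Tardbp.g with 0.379%. Zranb2.d, named after a splicing factor gene, had 0.543%, RGD1307525.a 0.572% and snorpee.a 0.616%. Bclaf1.d had 3412, 5149 and 5200 counts, and snorpee.a, which has no gene symbol, had 9024, 13483 and 13872. Such values are below what counting error alone gives at this depth and are the extremes of 779 rows, not a measure of precision. Of those 779 rows 300 had a CV under 5%.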

How the data were processed

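Total RNA of normal lumbosacral cord was sequenced in 3 libraries, grouped by the sample titles. The table that the authors deposited holds a read count for each transcript, in whole numbers, and an FPKM value, per the file headers. The deposited FPKM could be rebuilt from count, length and 1 total per library to within 0.024%. The submitters' processing notes name TopHat2 2.0.9, Cufflinks 2.1.1, Cuffdiff and CASAVA 1.8, and mm10 as the build. Because 551 rows lie on a chromosome 20 and mice have none, the coordinates are of another build, which no source used here gives. The same holds for the tool that counted reads, its strand setting and the transcript models.

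CPM were computed on TMM-scaled library sizes (edgeR 4.0.16 in R 4.3.3), and tables with Python 3.11.15, pandas 2.3.3, numpy 2.4.6 and SciPy 1.17.1. Of the rows, 8352 (36.8%) had a name or Ensembl name that the GRCr8 annotation table lists as a symbol, synonym or RefSeq transcript. The dispersion code was tested on counts simulated for all 22701 rows. There a biological coefficient of variation of 0.3 was estimated as 0.2993 from simulated rows with a mean of at least 10 counts, without rows changed on purpose. Every simulated row had the same variation, so the test says nothing of a mixture of steady and widely varying rows. Reads carry no stated molecular identifiers, so intervals and floors cover counting error only.

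Rows were named by rule: the 10 highest by mean count and by mean FPKM, the highest by FPKM of each identifier class and chromosome, the 5 of highest and of lowest CV with a mean of at least 1000 counts, the longest, shortest and widest rows, and the 3 highest members of each gene list. Other rows were named after their values were seen. The members and lists were chosen with earlier results of these data known. Some rows that the rule takes, glial members among them, are not reported here. Alternatives were other size factors, other minimum counts, FPKM in place of counts, thinning to the smallest library, sums over overlapping rows or gene names, and leaving out each library.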

Additional observations from a re-analysis of the deposited data

How the results depend on the processing

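No paired analysis was possible because only 1 group was described and no result comes from a test. Levels of the 71 named rows with a count moved by at most 1.01-fold under RLE factors, scaling by totals and FPKM times length. Leaving out 1 library moved 7 of them by over 1.5-fold: MSTRG.109.8 (9125 CPM, 1699 without replicate 2), Terc.a (38.46, 25.38 without replicate 3), Col2a1.e (5.679, 0.1106 without replicate 3 and 8.539 without replicate 1), Tyrobp.d (1.887, 0.501 without replicate 2) and the Tnnt2 rows .b (1.282, 0.7191 without replicate 3), .h (0.3689, 0.2208 without replicate 1) and .f (0.4072, 0.1113 without replicate 1). The share of counts in the top 10 rows was 12.6%. It was 18.1% when ranked and summed by FPKM and 13.7% with rows summed by gene name, and ranged from 12.6 to 13.0% without 1 library. The number of rows detected in all libraries, 12028, was 20040 with a minimum of 1 count, 11262 after thinning and 12247 to 13260 without 1 library. The median CV of 15.8% was 24.7% without a filter on low counts, 9.6% at means of at least 100 and 12.1 to 13.4% without 1 library, where an SD over 2 libraries is lower by construction. With overlapping rows summed, an alternative chosen after seeing the data, it was 14.6%. In place of counts, the share of summed FPKM was 82.3%, 7.74% and 9.94% for NONCODE, Ensembl and assembled rows. The share of chromosome 1 was 21.1% by FPKM and 10.8% without the 10 highest rows, both also chosen after seeing the data. The rank correlation of length with FPKM was 0.27 without a filter, against 0.13. Where values moved and no construction is named, the cause was not tested. With 3 libraries of 3017868 to 4549756 counts, counting error is large in rows under a mean of 100. At means of 10 to below 100 it gives a median of 18.5%, and 9.99% of those rows had a CV over 50%.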

Other observations

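Some abundant transcripts lie in a stretch of the X chromosome whose rows have no gene symbol. The rows parbee.a (NONRATT031072.2, 7366 bases) and NONRATT031073.2 (4389 bases) ran from 74324613 to 74341256, 98.4 kb after a row named after Chic1. In GRCr8 the genes after Chic1 include Tsx, Xist and Jpx, and the rows were not matched to any of them. Parbee.a had 123.5, 113.4 and 82.03 FPKM in replicates 1, 2 and 3, and NONRATT031073.2 had 90.63, 80.23 and 60.9. Their ratio of counts was 2.29, 2.37 and 2.26, so the proportion between them was kept, with CVs of 17.8% and 17.1%. An Ensembl row inside the second, ENSRNOT00000076920, had 3, 458 and 2 counts.

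Further rows named after coding genes differed widely between libraries. Ubb.a, named after a polyubiquitin gene, had 21, 5363 and 2633 counts in replicates 1, 2 and 3. Mllt11.c had 147.5, 139.2 and 37.88 FPKM. These rows were chosen after their values were seen. Ube2d2.b, named after a ubiquitin-conjugating enzyme, was steady by comparison at 109.8, 109.8 and 110.5 FPKM.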
